A study of Mus musculus with 50 samples.

Results

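Cytotoxic T cells and natural killer (NK) cells kill infected or transformed cells by releasing granules, and 10 genes that these cells and their helper T cell relatives are known for were followed across the RNA-seq count table. The genes were taken by symbol, and each matched 1 of the 45792 rows of the table. Cd3d, Cd3e and Cd3g encode the signalling chains that the T cell receptor needs to reach the cell surface. Cd4 encodes the co-receptor of helper and regulatory T cells, and Cd8a and Cd8b1 encode the chains of the co-receptor of cytotoxic T cells. Gzma and Gzmb encode granzymes, the proteases of the killing granule, Prf1 encodes perforin, the pore protein through which granzymes enter a target cell, and Nkg7 encodes a membrane protein of the same granules. The liver normally holds resident NK cells and T cells in its sinusoids.

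The libraries came from C3H/He mice harvested at 48 weeks, fed either a control diet or the ALIOS diet, which combines trans-fat rich chow with fructose in the drinking water. Non-tumour liver was sampled from 12 control diet libraries (N1 to N12) and 11 ALIOS diet libraries (N13 to N23). Tumours without carcinogen came from the ALIOS diet (12 libraries used, T2 to T6 and T8 to T14) and, in 1 library, from the control diet (T7). Tumours of mice that also received diethylnitrosamine (DEN), a liver carcinogen, came from the control diet (5 libraries, T17 to T21) and the ALIOS diet (8 libraries, T15, T16 and T22 to T27). No non-tumour liver of DEN treated mice was analysed here, so DEN and tumour cannot be told apart against liver. Total counts of the 49 libraries used ran from 23798251 to 45751398, and albumin (Alb), the marker of hepatocytes, had at least 1258699 reads in each. T1, labelled as an ALIOS diet tumour, held 1136 Alb reads and 1059419 reads of the kidney gene Kap and was left out, whereas Kap had at most 125 reads elsewhere, in N22. The study describes the tumours without DEN as coming from separate mice, and the labels do not say this of the other groups, where p-values measure the spread between libraries. In bulk tissue fewer cells of a type and less RNA per cell cannot be told apart.

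Several of the genes lie side by side in the genome. On chromosome 9 of GRCm38, the build the files use, Cd3g (44969572 to 44980431, minus strand) ends 1354 bases from Cd3d (44981786 to 44987339, plus strand), and Cd3e (44998740 to 45009627, minus strand) follows 11400 bases further on. Cd8b1 (71322788 to 71337494) and Cd8a (71373427 to 71379173) lie on the plus strand of chromosome 6 with 35932 bases between them, and Cd4 (124864692 to 124888221) lies on the minus strand of that chromosome. Gzma (113093825 to 113100981, minus strand) is on chromosome 13, Gzmb (56258838 to 56262260, minus strand) on chromosome 14, Prf1 (61297833 to 61304680, plus strand) on chromosome 10 and Nkg7 (43437073 to 43438249, plus strand) on chromosome 7. An antisense gene, Gm48719, shares exonic bases with Cd3e on the other strand and has no row of its own in the table, and the strand setting of the counting is not given in the sources used here, so reads of the pair cannot be told apart. The other members share no exonic bases with another gene.

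RefSeq promoter windows, from 250 bases before the start to 50 after it, were held for 8 of the 10 genes; Cd4 and Cd8b1 had none. The windows were searched on both strands for GGAA, the core of sites of the ETS family, TGTGGT, a word of RUNX family sites, and TATAAA, the TATA box; these words can share an end base. TGTGGT was found in all 4 windows of the granule genes Gzma, Gzmb, Prf1 and Nkg7 and in none of the 4 windows of Cd3d, Cd3e, Cd3g and Cd8a, against 16.8% of all 32851 promoter windows. GGAA was in 7 of the 8 windows, against 96.0% of all windows, and TATAAA was in none, against 13.6%. TGTGGT or its reverse complement is in capitals in the windows printed below. The windows of the neighbouring Cd3 genes, and of Prf1 and Nkg7, the granule genes with the clearest tumour changes, are shown 5′ to 3′. They lie on GRCm38.p6 at chr9:44980382-44980681 (minus strand), chr9:44981536-44981835 (plus), chr9:45009562-45009861 (minus), chr10:61297586-61297885 (plus) and chr7:43436888-43437187 (plus).
Cd3g: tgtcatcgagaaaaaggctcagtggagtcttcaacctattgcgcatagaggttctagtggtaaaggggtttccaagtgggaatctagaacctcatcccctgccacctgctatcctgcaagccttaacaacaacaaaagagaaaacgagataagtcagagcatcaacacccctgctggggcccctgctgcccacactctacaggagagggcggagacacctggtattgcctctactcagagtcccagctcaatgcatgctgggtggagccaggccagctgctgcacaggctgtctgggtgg
Cd3d: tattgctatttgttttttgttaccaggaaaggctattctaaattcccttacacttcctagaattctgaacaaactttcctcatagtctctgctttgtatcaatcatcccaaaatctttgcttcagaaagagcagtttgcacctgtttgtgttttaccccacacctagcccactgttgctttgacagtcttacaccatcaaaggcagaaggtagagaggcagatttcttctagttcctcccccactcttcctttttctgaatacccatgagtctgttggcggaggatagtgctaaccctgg
Cd3e: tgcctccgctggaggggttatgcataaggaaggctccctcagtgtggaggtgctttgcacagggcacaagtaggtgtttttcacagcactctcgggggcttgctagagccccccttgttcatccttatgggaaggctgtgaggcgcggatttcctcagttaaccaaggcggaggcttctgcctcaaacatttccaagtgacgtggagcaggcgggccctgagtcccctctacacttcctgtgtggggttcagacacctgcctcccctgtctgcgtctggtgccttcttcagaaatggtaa
Prf1: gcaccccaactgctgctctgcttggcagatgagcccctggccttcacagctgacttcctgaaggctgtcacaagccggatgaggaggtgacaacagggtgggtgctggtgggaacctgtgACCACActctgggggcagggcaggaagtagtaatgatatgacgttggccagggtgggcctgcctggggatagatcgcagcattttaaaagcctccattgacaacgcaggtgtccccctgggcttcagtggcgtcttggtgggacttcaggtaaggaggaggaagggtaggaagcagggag
Nkg7: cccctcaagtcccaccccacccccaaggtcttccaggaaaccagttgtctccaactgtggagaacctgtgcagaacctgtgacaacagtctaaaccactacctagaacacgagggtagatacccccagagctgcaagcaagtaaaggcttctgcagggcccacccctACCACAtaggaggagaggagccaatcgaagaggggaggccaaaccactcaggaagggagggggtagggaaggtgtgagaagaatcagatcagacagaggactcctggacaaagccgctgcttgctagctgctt
The letters describe these windows and were not tested as sites.

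All 10 genes were low in every group. Counts over the 49 libraries ran from 1 to 511 for Nkg7, from 3 to 270 for Cd4 and from 1 to 330 for Cd3g, and Cd8b1 had fewer than 10 reads in 29 of the libraries, Gzmb and Prf1 in 26 each, Gzma in 20, Cd3d in 19 and Cd8a in 18. Per kilobase of exon, the mean level in control diet liver was 0.902 counts per 1000000 reads (CPM) per kb for Cd4, 0.475 for Nkg7 and 0.382 for Gzma, and the other members were between 0.0339 (Cd8a) and 0.133 (Cd3d). In ALIOS diet liver the order at the top was Nkg7 (1.37 CPM per kb), Cd4 (0.804) and Gzma (0.607).

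Ordered by mean CPM over the 6 groups, the ALIOS diet DEN tumours stood first for 7 genes (Cd3d, Cd3e, Cd3g, Cd8b1, Gzma, Prf1 and Nkg7), the ALIOS diet tumours without DEN for Cd8a and Gzmb, and control diet liver for Cd4. Control diet liver was last for Cd3e, Cd3g, Cd8a, Cd8b1, Prf1 and Nkg7. Ordered by median CPM, the ALIOS diet DEN tumours stood first only for Cd3d, Cd3g and Gzma. The control diet DEN tumours then led for Cd3e (0.801 against 0.737 in the ALIOS diet DEN tumours), Prf1 (0.857 against 0.561) and Nkg7 (2.11 against 1.35). For Cd8b1 the ALIOS diet tumours without DEN had the highest median. Spread within the ALIOS diet DEN tumours was wide: for Cd8b1, Gzma, Gzmb and Nkg7 the SD exceeded the mean, as in Gzma with 1.02 ± 1.26 CPM (SD, n = 8) and Nkg7 with 3.09 ± 3.20 CPM (SD, n = 8). A single library, T24, was among the 3 highest of all 49 for 9 of the 10 genes, Cd4 being the exception. T26, of the same group, was among them for 5 genes, and T11, a tumour without DEN, for 4. In each of the 6 comparisons between groups made here the libraries of the 2 groups overlapped for every one of the 10 genes. The share of all genes whose groups overlap was not computed, so this is not a trait particular to these genes.

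**Figure D1:**
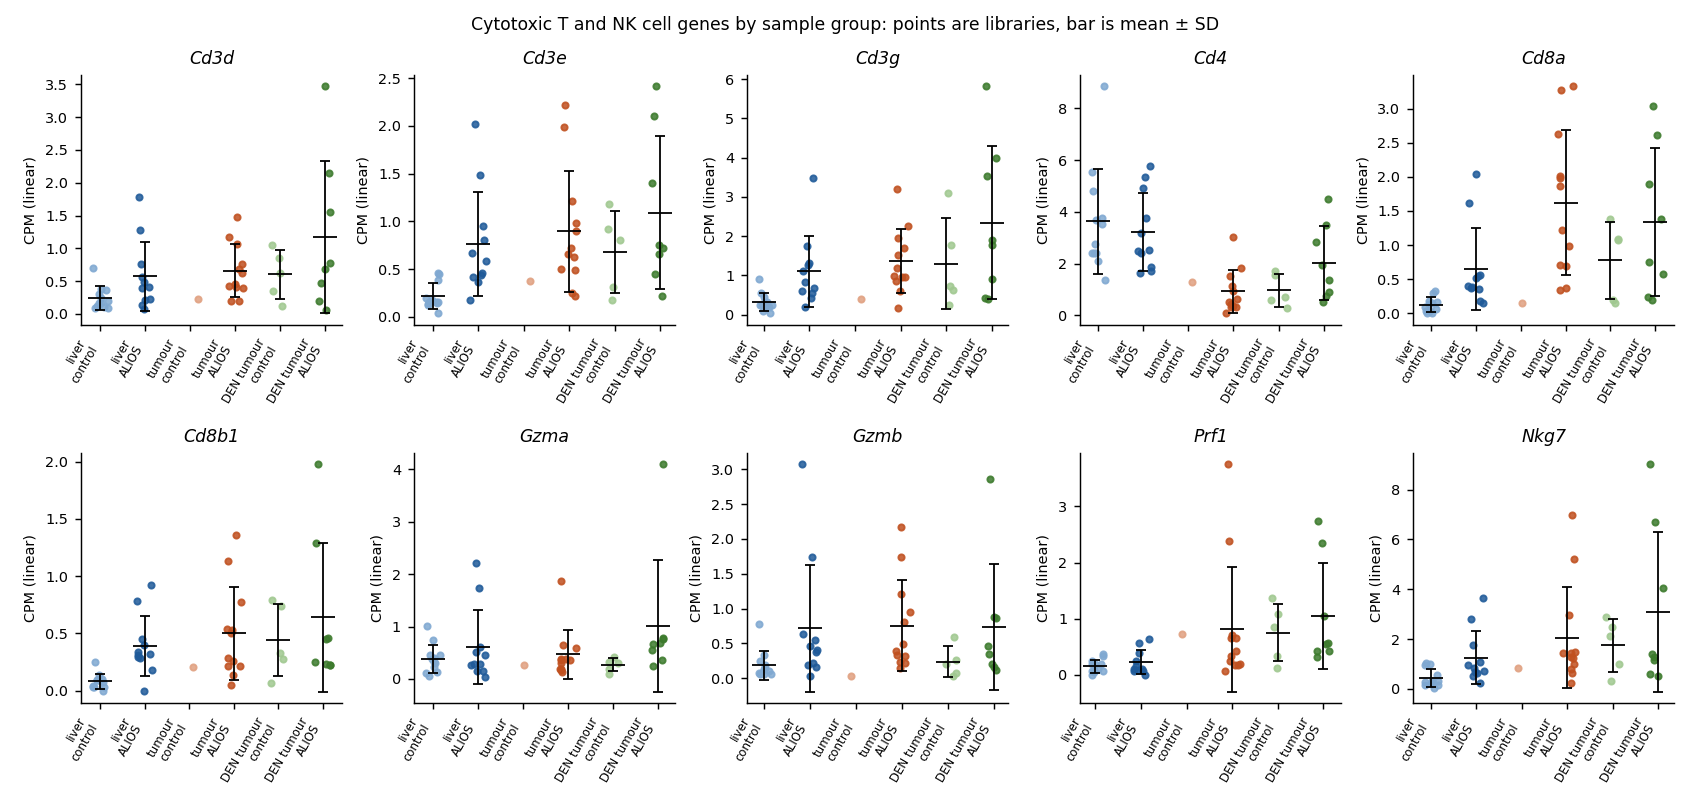
Level of each of the 10 genes in counts per 1000000 reads (CPM, linear axis) in each library, by sample group; the horizontal bar and whiskers are the mean and SD, and the control diet tumour is 1 library with no bar. Cd4 is higher in the livers than in most tumours, while the other genes have their highest libraries among the ALIOS diet samples.

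In non-tumour liver, the question was whether the ALIOS diet changed these genes. Cd3e, Cd3g and Nkg7 were higher on the ALIOS diet, and Gzma and Cd4 were not called. Cd3e, the CD3 epsilon chain, had 1 to 15 reads (median 5) in the 12 control diet livers and 5 to 61 reads (median 16) in the 11 ALIOS diet livers. Its mean level was 0.215 ± 0.137 CPM (SD, n = 12) and 0.762 ± 0.547 CPM (SD, n = 11), a 3.58-fold rise by edgeR (log2 fold change 1.84 ± 0.38, adjusted p = 0.0052; the error of each fold change is the SE). Every one of the 11 passed the control median, and 7 had more than any control liver. Cd3g, the CD3 gamma chain, had 1 to 22 reads (median 8) in control livers and 6 to 105 reads (median 27) in ALIOS diet livers, and rose 3.54-fold (log2 fold change 1.82 ± 0.41, adjusted p = 0.00821). Here 10 of the 11 passed the control median, and 5 had more than any control liver.

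Of the granule genes, Nkg7 had 1 to 29 reads (median 9.5) in control livers and 7 to 110 reads (median 27) in ALIOS diet livers, and rose 2.96-fold (log2 fold change 1.56 ± 0.46, adjusted p = 0.0293). The groups overlapped, and 4 ALIOS diet livers lay above all control livers. Gzma had 2 to 30 reads (median 10.5) and 1 to 67 reads (median 9) and was not called (log2 fold change 0.66 ± 0.50, adjusted p = 0.397). Its 2 highest livers, N17 with 67 reads and N18 with 50, were both on the ALIOS diet, and the lowest, N13 with 1, was too. Cd4 had 44 to 270 reads (median 82.5) in control livers and 47 to 158 reads (median 76) in ALIOS diet livers and was not called (log2 fold change -0.18 ± 0.28, adjusted p = 0.713). The highest Cd4 library of all, N7 with 270 reads, was a control diet liver with 6 Cd3e reads.

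The filter on low counts removed Cd3d, Cd8a, Cd8b1, Gzmb and Prf1 here, so 5 of the 10 genes were tested. Of these 3 rose and none fell, where 6.73% of all 13723 genes tested were called higher. Cd3e had fewer than 10 reads in 10 of the 12 control diet livers and in 1 of the 11 ALIOS diet livers. For Cd3g these numbers were 9 and 1. Both passed the filter mainly through the group where they are high, so nothing is concluded from this share. In a fit without the filter, Cd8a had 0 to 10 reads (median 3) in control livers and 4 to 62 reads (median 12) in ALIOS diet livers and rose 5.20-fold (log2 fold change 2.38 ± 0.49, adjusted p = 0.00674). Cd8b1, its partner chain, had 0 to 6 reads (median 2.5) and 0 to 28 reads (median 9) and rose 4.63-fold (log2 fold change 2.21 ± 0.44, adjusted p = 0.00534). Gzmb had 1 to 23 reads (median 3.5) and 1 to 93 reads (median 11) and rose (log2 fold change 1.91 ± 0.55, adjusted p = 0.0414), with N17 at 93 reads and N15 at 57. Cd3d and Prf1 were not called. Cd3d had 3 to 17 reads (median 5.5) and 2 to 54 reads (median 13), with log2 fold change 1.27 ± 0.44, adjusted p = 0.0843. Prf1 had 0 to 9 reads (median 4) and 0 to 22 reads (median 3), with log2 fold change 0.55 ± 0.50, adjusted p = 0.502. Without the filter 6 of the 10 genes were called higher, where 3.64% of 26023 genes were, and the median log2 fold change was 1.69 over the 10 genes and -0.0073 over all genes.

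The calls for Nkg7 and Gzmb each rested on few livers. Without N17, N19 or N22 the adjusted p of Nkg7 was 0.0784, 0.0671 or 0.0507, and without the filter, leaving out N15, N17 or N19 gave Gzmb an adjusted p of 0.0820, 0.147 or 0.0639. With both N17 and N19 left out, an alternative chosen after seeing the data, Cd3e was the 1 member still called, and Cd3g had a log2 fold change of 1.30 (adjusted p = 0.0509). Beside these genes, 7 of 8 macrophage markers were higher on the ALIOS diet, among them Adgre1 (log2 fold change 1.01 ± 0.24, adjusted p = 0.01). So were 3 of 4 pan-leukocyte markers, among them Ptprc, which encodes CD45 (0.93 ± 0.24, adjusted p = 0.0173). Of 3 B cell markers tested 1 rose, and neither the 3 neutrophil markers nor the 1 dendritic cell marker tested were called. The summed pan-leukocyte level was 15.97 to 53.9 CPM in control diet livers and 19.5 to 102 CPM in ALIOS diet livers, the summed macrophage level was 178 to 381 CPM and 244 to 902 CPM, and no marker of either list was at 0 in all libraries of a group; their part in the T cell result was not tested.

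Other genes of the T cell and NK cell programme, from lists chosen with earlier results of these data known, were also followed in liver. Of 20 further genes of the T cell receptor complex and its signalling, 6 were tested and 4 rose and 1 fell; Thy1, a surface marker of mouse T cells, had a log2 fold change of 1.37 ± 0.31, adjusted p = 0.00809, and Lck, the kinase bound to CD4 and CD8, 1.17 ± 0.35, adjusted p = 0.0346. Of 24 genes of the granule and of effector molecules, 11 were tested and 4 rose, among them the chemokine Ccl5 (2.12 ± 0.51, adjusted p = 0.0125) and the granule protease gene Ctsw (1.44 ± 0.35, adjusted p = 0.0125). Tox, a transcription factor of stimulated T cells, had 1.91 ± 0.33, adjusted p = 0.00165, 1 of 3 that rose among the 8 lymphocyte transcription factors tested. Of 21 NK receptor and identity genes in the table only 2 passed the filter, and Klrk1, which encodes the receptor NKG2D, rose (0.78 ± 0.22, adjusted p = 0.0244). Ncr1, the gene of the NK receptor NKp46, had 2 to 15 reads in control diet livers and 0 to 19 in ALIOS diet livers and was not tested. None of the 11 genes of MHC class I presentation was called.

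**Figure D2:**
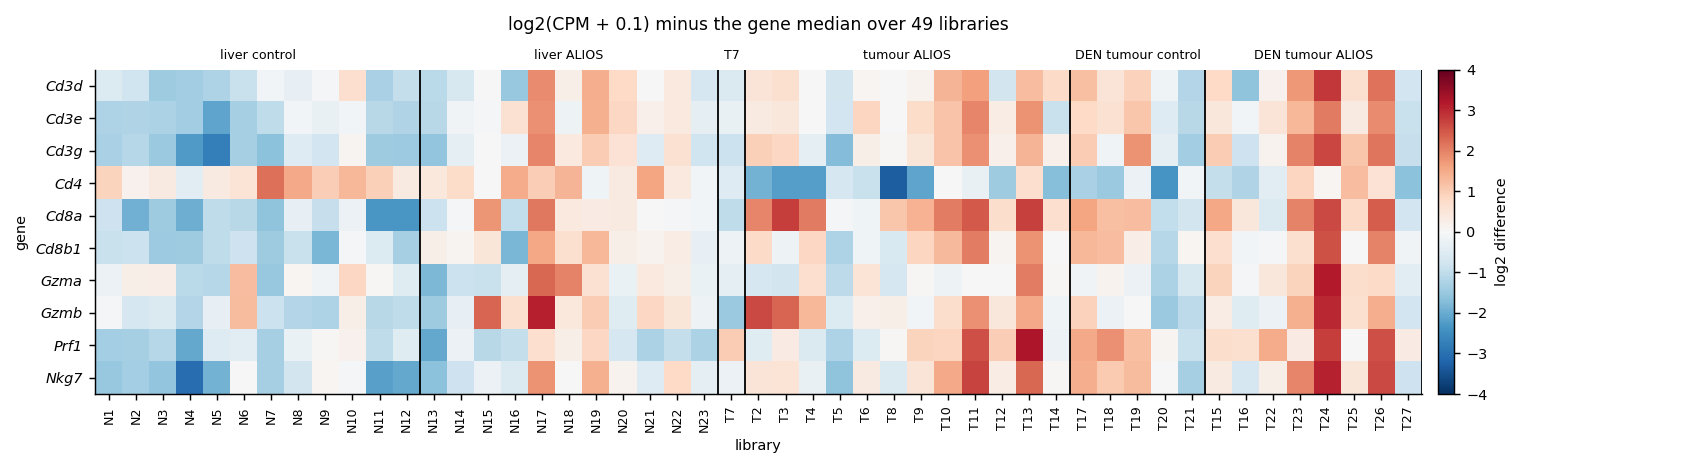
Log2(CPM + 0.1) of each gene minus its median over the 49 libraries, with libraries in columns ordered by group and T7 the 1 control diet tumour; red is above and blue below the gene's median. T24, T26, T11, T13 and N17 are red for most genes, while the Cd4 row is mostly red in the livers and blue in the tumours T2 to T9.

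Tumours without DEN were compared with non-tumour liver on the ALIOS diet. Cd4 fell and Cd8a rose, while the Cd3 genes were not called. Cd4 had 47 to 158 reads (median 76) in 11 livers and 3 to 96 reads (median 19) in 12 tumours, a level of 3.24 ± 1.505 CPM (SD, n = 11) against 0.927 ± 0.844 CPM (SD, n = 12) (log2 fold change -1.83 ± 0.41, adjusted p = 0.000649). In CPM, 10 of the 12 tumours were below every liver, and T13 with 96 reads was the highest tumour. Cd8a had 4 to 62 reads (median 12) in liver and 13 to 111 reads (median 44.5) in tumours and rose 2.42-fold (log2 fold change 1.27 ± 0.45, adjusted p = 0.0194). In CPM 10 of the tumours were above the liver median and 3 above every liver; T3 had 111 reads and T13 104.

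Cd3d, Cd3e and Cd3g had log2 fold changes of 0.15, 0.20 and 0.26, each with an SE of 0.39 to 0.43 and an adjusted p of at least 0.605. Their counts in tumours ran from 7 to 48, 7 to 72 and 7 to 104. The 3 granule genes tested were not called either. Nkg7, with 10 to 226 reads (median 45.5) in tumours, had a log2 fold change 0.68 ± 0.49, adjusted p = 0.243. Gzma, with 5 to 59 reads (median 12), had a log2 fold change -0.41 ± 0.52, adjusted p = 0.527. Gzmb, with 6 to 58 reads (median 15), had a log2 fold change 0.02 ± 0.55, adjusted p = 0.98. T2, T3 and T4 had 56, 58 and 32 Gzmb reads beside 5, 14 and 7 Prf1 reads, and T11 and T13 had 39 and 30 beside 77 and 119. The 2 granule genes thus peaked in different tumours. The filter removed Cd8b1 and Prf1. In the fit without it Prf1, with 0 to 22 reads (median 3) in liver and 3 to 119 reads (median 12) in tumours, rose 3.54-fold (log2 fold change 1.82 ± 0.62, adjusted p = 0.0249). Cd8b1, with 2 to 44 reads (median 11.5) in tumours, had a log2 fold change 0.34 ± 0.46, adjusted p = 0.604.

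Of the 8 genes tested, 1 rose and 1 fell, where 26.9% of 14183 genes were called higher and 25.9% lower; without the filter 2 of 10 were called higher, where 18.6% of all genes were, and the median log2 fold change was 0.26 over the 10 genes and 0.14 over all genes. These shares are near or below the background. The ratio of Cd4 to Cd3e counts, in which library depth cancels, had a median of 15.9 in control diet livers, 4.70 in ALIOS diet livers and 0.827 in these tumours, with ranges of 9.71 to 64.0, 1.10 to 14.6 and 0.200 to 4.50. The ratio of Cd8a to Cd3e counts had medians of 0.514, 0.857 and 1.65, and that of Cd8b1 to Cd8a had medians of 0.727 in ALIOS diet livers and 0.355 in tumours. In DEN tumours the median ratio of Cd4 to Cd3e was 0.900 for the control diet and 1.72 for the ALIOS diet. Ratios are descriptions and were not tested. Beside the fall of Cd4, 7 of 8 macrophage markers fell, such as the Kupffer cell genes Timd4 (-1.44 ± 0.39, adjusted p = 0.00316) and Vsig4 (-1.47 ± 0.41, adjusted p = 0.00409); the summed macrophage level was 244 to 902 CPM in ALIOS diet livers and 30.6 to 473 CPM in these tumours, and its part in the Cd4 result was not tested.

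In the same comparison none of the 15 T cell receptor and signalling genes tested was called, nor any of the 4 NK genes. Of 13 granule and effector genes tested, 2 rose and 3 fell, among them Unc13d, needed for granule release (1.09 ± 0.22, adjusted p = 0.000222), and Tnfsf10, the death ligand TRAIL (-0.93 ± 0.18, adjusted p = 0.000161). Of 10 lymphocyte transcription factors tested 4 rose, with Tcf7 at 0.87 ± 0.18, adjusted p = 0.00024 and Prdm1 at 1.31 ± 0.31, adjusted p = 0.00117. Of the homing genes, S1pr5 (-0.86 ± 0.16, adjusted p = 0.000127) fell and the chemokine gene Cxcl10 (1.09 ± 0.38, adjusted p = 0.0198) rose. Among 11 genes of MHC class I presentation, which shows peptides to CD8 T cells, 2 rose and 5 fell. Of all genes 26.9% were called higher and 25.9% lower. Without the filter 2 of the same 11 genes rose and 2 fell. In the fit with the filter Nlrc5, the activator of the class I genes, had 1.13 ± 0.17, adjusted p = 1.21e-05. The immunoproteasome subunit gene Psmb9 had -0.70 ± 0.18, adjusted p = 0.00205.

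**Figure D3:**
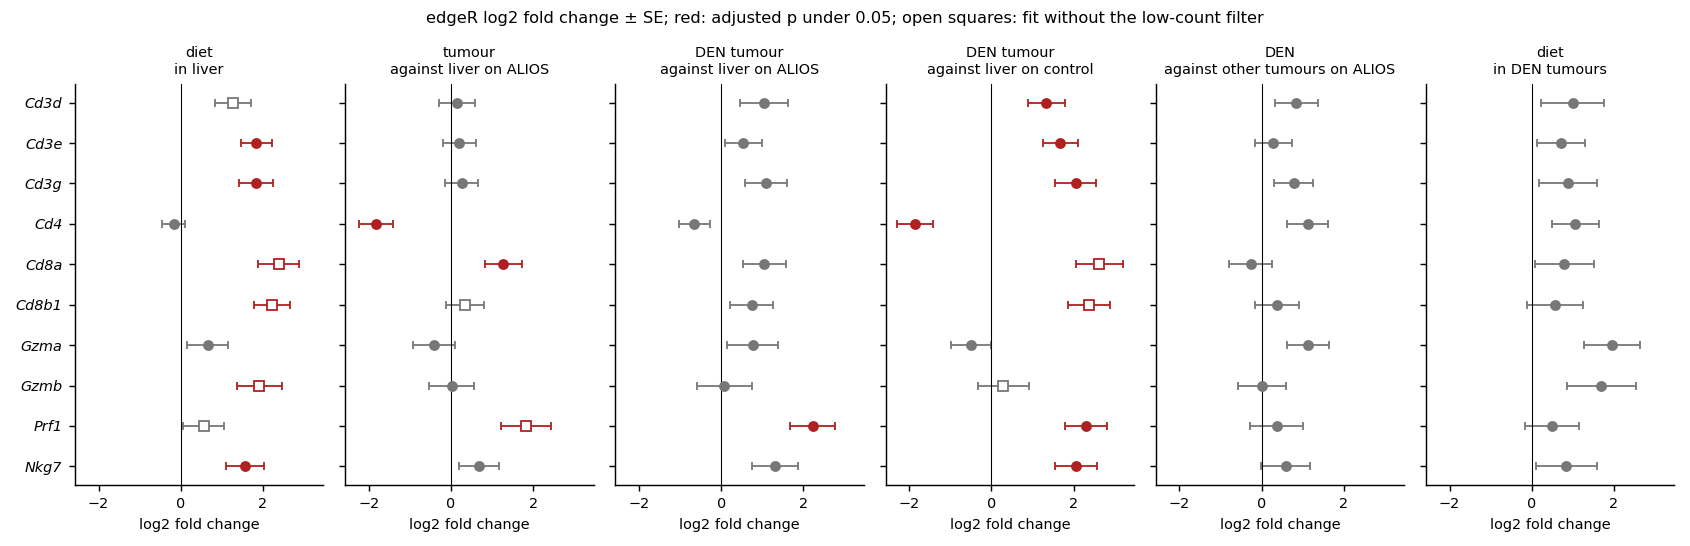
Log2 fold change and its SE (edgeR) of each gene in 6 comparisons; red marks an adjusted p under 0.05, and open squares are genes that the low-count filter removed, taken from the fit without it. Cd4 lies left of 0 in the comparisons of tumours with liver, whereas Prf1 lies right of 0 in all 6.

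On the control diet, DEN tumours were compared with non-tumour liver, using the same 12 control livers as the diet comparison. The Cd3 genes, Prf1 and Nkg7 were higher in the tumours and Cd4 was lower. The 5 tumours T17 to T21 had, in that order, 28, 27, 36, 10 and 7 Cd3e reads, against 1 to 15 reads (median 5) in liver (3.20-fold, log2 fold change 1.68 ± 0.43, adjusted p = 0.00289). Cd3g had 54, 25, 94, 20 and 10 reads against 1 to 22 reads (median 8) (log2 fold change 2.05 ± 0.49, adjusted p = 0.00181), and Cd3d 32, 21, 26, 11 and 5 against 3 to 17 reads (median 5.5) (log2 fold change 1.34 ± 0.45, adjusted p = 0.0192). These 3 genes were high in T17 to T19, and T20 and T21 were within the range of the control livers in reads. The Cd3d call rested on T17 and T19, without which the adjusted p was 0.0931 and 0.0589.

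Prf1 had 33, 46, 26, 11 and 5 reads in the 5 tumours against 0 to 9 reads (median 4) in liver, a 4.92-fold rise (log2 fold change 2.30 ± 0.51, adjusted p = 0.000901). Nkg7 had 87, 71, 75, 32 and 13 reads against 1 to 29 reads (median 9.5) and rose 4.16-fold (log2 fold change 2.06 ± 0.52, adjusted p = 0.00256). Both granule genes were thus higher, whereas the granzymes were not called. Gzma had 10, 14, 9, 3 and 8 reads against 2 to 30 reads (median 10.5) (log2 fold change -0.50 ± 0.49, adjusted p = 0.41). Cd4 had 21, 20, 48, 9 and 69 reads against 44 to 270 reads (median 82.5) and fell (log2 fold change -1.86 ± 0.43, adjusted p = 0.00135), with all 5 tumours below the liver median. Cd8a, Cd8b1 and Gzmb were removed by the filter. Without it Cd8a, at 42, 36, 33, 5 and 8 reads, rose 6.16-fold (log2 fold change 2.62 ± 0.57, adjusted p = 0.000915) and Cd8b1, at 24, 25, 10, 2 and 11, rose 5.18-fold (log2 fold change 2.37 ± 0.50, adjusted p = 0.000741), while Gzmb, at 18, 7, 8, 1 and 3, had a log2 fold change 0.29 ± 0.62, adjusted p = 0.742.

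Of the 7 genes tested 5 rose and 1 fell, where 27.3% of 14731 genes were called higher and 24.4% lower. Cd3d, Cd3e, Cd3g and Prf1 had fewer than 10 reads in 9, 10, 9 and 12 of the 12 control diet livers. In the 5 tumours these numbers were 1, 1, 0 and 1. They passed the filter mainly through the tumours, so nothing is concluded from this share. Without the filter 7 of 10 were higher, where 18.5% of 25989 genes were, and the median log2 fold change was 1.84 over the 10 genes and 0.05 over all genes. All 4 pan-leukocyte markers rose as well, Ptprc with 1.02 ± 0.26, adjusted p = 0.00273, their summed level being 15.97 to 53.9 CPM in liver and 25.99 to 69.4 CPM in the tumours, and 5 of 8 macrophage markers fell, from a summed 178 to 381 CPM to 43.4 to 181 CPM; their part in these results was not tested. Of the companion genes, Thy1 (1.73 ± 0.28, adjusted p = 4.51e-05) and Cd247, the CD3 zeta chain (1.63 ± 0.47, adjusted p = 0.00694), were among 4 of 10 T cell receptor and signalling genes that rose. Of 14 granule and effector genes 7 rose and 2 fell, with the chemokine genes Ccl3 (3.09 ± 0.37, adjusted p = 1.14e-06), Ccl4 (2.11 ± 0.38, adjusted p = 0.000127) and Ccl5 (2.59 ± 0.54, adjusted p = 0.000496) among those that rose. Tox had 3.05 ± 0.39, adjusted p = 3.07e-06, the NK and T cell receptor gene Cd244 2.20 ± 0.46, adjusted p = 0.000483, and Havcr2, the checkpoint receptor TIM-3, 2.03 ± 0.40, adjusted p = 0.000269.

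On the ALIOS diet, DEN tumours were compared with the 11 ALIOS diet livers. Prf1 had 0 to 22 reads (median 3) in liver and 10 to 155 reads (median 18.5) in tumours and rose 4.66-fold (log2 fold change 2.22 ± 0.56, adjusted p = 0.00291). All 8 tumours were above the liver median in CPM, and 3 were above every liver. Prf1 had fewer than 10 reads in 8 of the 11 livers and in 0 of the 8 tumours. It thus passed the filter mainly through the tumours. The other 9 genes were tested and not called. Nkg7, with 18 to 511 reads (median 45) in tumours, had a log2 fold change 1.31 ± 0.56, adjusted p = 0.0603. Cd3g, with 13 to 330 reads (median 61.5), had a log2 fold change 1.09 ± 0.51, adjusted p = 0.0847. Cd8a, with 7 to 172 reads (median 36), had a log2 fold change 1.05 ± 0.53, adjusted p = 0.111. The remaining values lay closer to 0 or had larger errors relative to their size: the log2 fold change was 1.04 for Cd3d, 0.54 for Cd3e, 0.74 for Cd8b1, 0.76 for Gzma, 0.08 for Gzmb and -0.65 for Cd4, with adjusted p from 0.157 to 0.933. Thus 1 of 10 genes was called higher, where 27.7% of 14434 genes were, and the median log2 fold change without the filter was 0.87 over the 10 genes and 0.12 over all genes. In CPM the 8 tumours spread widely, with Nkg7 from 0.503 to 9.02.

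Some calls appeared when 1 tumour was left out: Cd3g without T27 (adjusted p = 0.0452), Cd4 without T25 (0.0408), and Nkg7 without T16, T22 or T27 (0.0399, 0.0496 and 0.0354). Among the companion genes, Trbc2, a constant segment of the T cell receptor beta chain, had 1.47 ± 0.51, adjusted p = 0.0235, and Zap70, the kinase that binds the CD3 chains, 0.87 ± 0.33, adjusted p = 0.0362, 2 of 4 that rose among 16 tested, a share below the 27.7% of all genes called higher. Without the filter Zap70 was not called, and 2 genes of that list were. Zap70 had a median of 254 reads in control diet livers and 132 in ALIOS diet livers, where Cd3e had 5 and 16. Its reads thus did not follow Cd3e between the diets, and the cells they came from were not tested. Eomes, a transcription factor of NK and CD8 T cells, had 2.07 ± 0.63, adjusted p = 0.0108 and Tcf7 2.15 ± 0.47, adjusted p = 0.000962. Tcf7 had 36 to 86 reads (median 72) in ALIOS diet livers and 104 to 2783 (median 158) in these tumours. Its highest tumour thus lay far above the median of the group. In control diet livers Tcf7 had a median of 76 reads, and the cells they came from were not tested. The checkpoint receptor genes Pdcd1, encoding PD-1, and Tigit had 1.96 ± 0.70, adjusted p = 0.0275 and 2.02 ± 0.74, adjusted p = 0.0305. The chemokine genes Cxcl9 and Cxcl10, whose receptor CXCR3 is found on T and NK cells, had 1.61 ± 0.43, adjusted p = 0.00439 and 1.62 ± 0.43, adjusted p = 0.0043. They were 2 of 4 homing genes that rose among 12 tested, and S1pr5 (-1.08 ± 0.29, adjusted p = 0.00437) and S1pr1 (-0.35 ± 0.11, adjusted p = 0.0131) fell. Of 8 macrophage markers Adgre1 (-0.95 ± 0.34, adjusted p = 0.0278) and Vsig4 (-1.27 ± 0.49, adjusted p = 0.0395) fell, with a summed level of 244 to 902 CPM in liver and 29.0 to 572 CPM in these tumours.

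DEN tumours and tumours without DEN, both on the ALIOS diet, gave no call for any of the 10 genes, and edgeR called 0 of 14845 genes (0.0%), with 1079 at an unadjusted p under 0.05. DESeq2 called 75 genes and the fit of all 6 groups 403, with no member among them. The log2 fold changes furthest from 0 were 1.13 ± 0.52 for Gzma, with 5 to 59 reads (median 12) without DEN and 9 to 232 reads (median 24) with it, and 1.12 ± 0.51 for Cd4, with 3 to 96 reads (median 19) and 19 to 143 reads (median 81.5). Without T24 the log2 fold change of Gzma was 0.29. The adjusted p of the 10 genes ran from 0.63 to 1. The median log2 fold change without the filter was 0.49 over the 10 genes and 0.02 over all genes.

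Diet within DEN tumours also left all 10 genes uncalled, where 0.0134% of 14944 genes were called (2 genes, with 1273 at an unadjusted p under 0.05; DESeq2 called 155). All 10 log2 fold changes were above 0 on the ALIOS diet, with a median without the filter of 0.86 against 0.06 over all genes. T24 was the highest ALIOS diet DEN tumour for 9 of the genes, so these directions are not independent. Median CPM was lower on the ALIOS diet for Nkg7 (1.35 against 2.11), Prf1 (0.561 against 0.857), Cd3e (0.737 against 0.801) and Cd8a (1.064 against 1.068). For the other genes it was higher. Gzma had 10, 14, 9, 3 and 8 reads in the control diet tumours T17 to T21 and 9 to 232 reads (median 24) in the ALIOS diet tumours (log2 fold change 1.95 ± 0.69, adjusted p = 0.42), and DESeq2 gave it a log2 fold change of 1.07 and the fit without T24 1.10. Gzmb had 18, 7, 8, 1 and 3 reads and 4 to 162 reads (median 13.5) (log2 fold change 1.69 ± 0.85, adjusted p = 0.632). T24 had the highest count of both granzymes, 232 and 162. With 5 tumours against 8 and this spread, the SE of the Cd3 genes was 0.59 to 0.77 on the log2 scale.

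The difference of the diet effect between DEN tumour and liver was tested as an interaction. None of the 10 genes was called, where 2.27% of 15606 genes were. The interaction terms were -1.66 for Cd8b1, -1.60 for Cd8a and -1.14 for Cd3e, and 1.28 for Gzma and 1.21 for Cd4, with adjusted p from 0.266 to 0.977 over the 10 genes. A diet effect called in liver and not in DEN tumours was thus not shown to differ between them. Of the companion genes 4 were called, beside 2.27% of all genes. Of 5 regulatory and helper T cell genes and 12 lymphocyte transcription factors tested, 1 each was called. So was 1 of 7 checkpoint receptor genes and 1 of 13 homing genes. None of 17 T cell receptor and signalling genes or 17 granule and effector genes was called. The same held for 8 NK genes and 11 genes of MHC class I presentation. The diet effect was lower in DEN tumours than in liver for Tnfrsf18, which encodes the receptor GITR (-3.14 ± 0.81, adjusted p = 0.0327). It was also lower for Tox (-2.35 ± 0.61, adjusted p = 0.0343) and Pdcd1 (-4.73 ± 1.32, adjusted p = 0.0476). It was higher for S1pr1, a receptor of lymphocyte exit from tissue (0.64 ± 0.17, adjusted p = 0.0362). Tnfrsf18 had 0 to 6 reads in control diet livers and 1 to 33 in ALIOS diet livers. In DEN tumours it had 55 to 716 on the control diet and 35 to 556 on the ALIOS diet. Foxp3, a gene of regulatory T cells, had 0 to 8 and 2 to 16 reads in those tumours. S1pr1 had 1025 to 1973 reads in control diet livers, where Cd3e had 1 to 15. Which cells the Tnfrsf18 and S1pr1 reads came from was not tested. Pdcd1 had 0 to 1 reads in control diet livers, 0 to 16 in ALIOS diet livers, 0 to 51 in control diet DEN tumours and 0 to 122 in ALIOS diet DEN tumours, so its value rests on a group near 0. Without the filter Pdcd1 and S1pr1 were not called.

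Whether the genes varied together was examined over libraries on log2 CPM, within 3 sets: the 23 livers, the 13 tumours without DEN including T7, and the 13 DEN tumours. For 12 pairs of genes in 3 sets, 36 relations, p-values came from permutation tests and were adjusted together. The neighbouring genes Cd3e and Cd3g gave Pearson's r = 0.94 and Spearman's rho = 0.90 in liver, where adjusted p = 9e-05 and 0.00018, Pearson's r = 0.82 and Spearman's rho = 0.88 in tumours without DEN (adjusted p = 0.00183 and 0.00052), and Pearson's r = 0.93 and Spearman's rho = 0.92 in DEN tumours (adjusted p = 0.000144 and 0.00042). Without the 2 libraries farthest from the Cd3e median r was 0.91, 0.71 and 0.89, and within the control and ALIOS diet livers it was 0.91 and 0.89. The smallest p that 100000 resamples can give is 1e-05.

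Nkg7 also varied with Cd3e, with Pearson's r = 0.83 and Spearman's rho = 0.74 in liver (adjusted p = 9e-05 and 0.00052), Pearson's r = 0.90 and Spearman's rho = 0.89 in tumours without DEN (0.000206 and 0.000514) and Pearson's r = 0.96 and Spearman's rho = 0.97 in DEN tumours (9e-05 and 0.00018), by permutation. Without the 2 farthest libraries r was 0.79, 0.78 and 0.93. Within the control and ALIOS diet livers r was 0.61 and 0.88. The permutations of the 23 livers pooled the 2 diets, so the liver p-values of all pairs also reflect the diet contrast. Nkg7 against Ncr1, the NK cell gene, gave Pearson's r = 0.55 and Spearman's rho = 0.51 in liver (adjusted permutation p = 0.0112 and 0.0286), Pearson's r = 0.55 and Spearman's rho = 0.57 in tumours without DEN (0.066 and 0.0645), and Pearson's r = 0.40 and Spearman's rho = 0.15 in DEN tumours (0.194 and 0.627). Without the 2 farthest libraries r was 0.54, 0.70 and -0.05, and within the control and ALIOS diet livers it was 0.40 and 0.80. Gzma against Ncr1 gave Pearson's r = 0.74 and Spearman's rho = 0.65 in liver (adjusted permutation p = 0.00024 and 0.00384), and r = 0.65 without the 2 farthest libraries. Within the control and ALIOS diet livers r was 0.48 and 0.86. In tumours without DEN the pair gave Pearson's r = 0.60 and Spearman's rho = 0.29 (adjusted permutation p = 0.0397 and 0.344), with r = 0.36 without T13 and T5. In DEN tumours the pair gave Pearson's r = 0.62 and Spearman's rho = 0.32, falling to r = 0.11 without T24 and T20, on which that relation rested.

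The relation of Cd4 with Cd3e was not called in any of the 3 sets. It had Pearson's r = 0.14 and Spearman's rho = 0.30 in liver (adjusted permutation p = 0.537 and 0.197), with r = 0.57 within the control diet livers and 0.05 within the ALIOS diet livers. In tumours without DEN it had Pearson's r = 0.47 and Spearman's rho = 0.43 (0.119 and 0.169) and in DEN tumours Pearson's r = 0.51 and Spearman's rho = 0.46 (0.0862 and 0.154), again by permutation. Without the 2 farthest libraries r was 0.07, 0.09 and 0.68. Against the macrophage gene Adgre1, Cd4 had Pearson's r = 0.08 and Spearman's rho = 0.22 in liver (adjusted permutation p = 0.715 and 0.326). In tumours without DEN it had Pearson's r = 0.55 and Spearman's rho = 0.51 (0.0629 and 0.107). In DEN tumours it had Pearson's r = 0.64 and Spearman's rho = 0.62 (0.0324 and 0.044). Without the 2 libraries farthest from the Cd4 median r was 0.10, 0.32 and 0.69. Of the 36 relations 27 had an adjusted p under 0.05 for Pearson's r. Gzma and Gzmb against Cd3e in tumours without DEN, both with r = 0.53, were like Cd4 not among them (adjusted permutation p = 0.0712 for each).

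Cd8a against Cd3e gave Pearson's r = 0.73 and Spearman's rho = 0.75 in liver, but r was 0.45 and 0.49 within the diets. In tumours without DEN it gave Pearson's r = 0.61 and Spearman's rho = 0.60, with r = 0.43 without T11 and T13, and in DEN tumours Pearson's r = 0.90 and Spearman's rho = 0.91, with r = 0.86 without T21 and T24. The adjusted permutation p for r was 0.000327, 0.0397 and 0.000324, and for rho 0.00042, 0.0527 and 0.00042. Prf1 against Cd3e gave Pearson's r = 0.76 and Spearman's rho = 0.51 in tumours without DEN (adjusted permutation p = 0.00582 and 0.109), and r fell to 0.42 without T11 and T13.

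**Figure D4:**
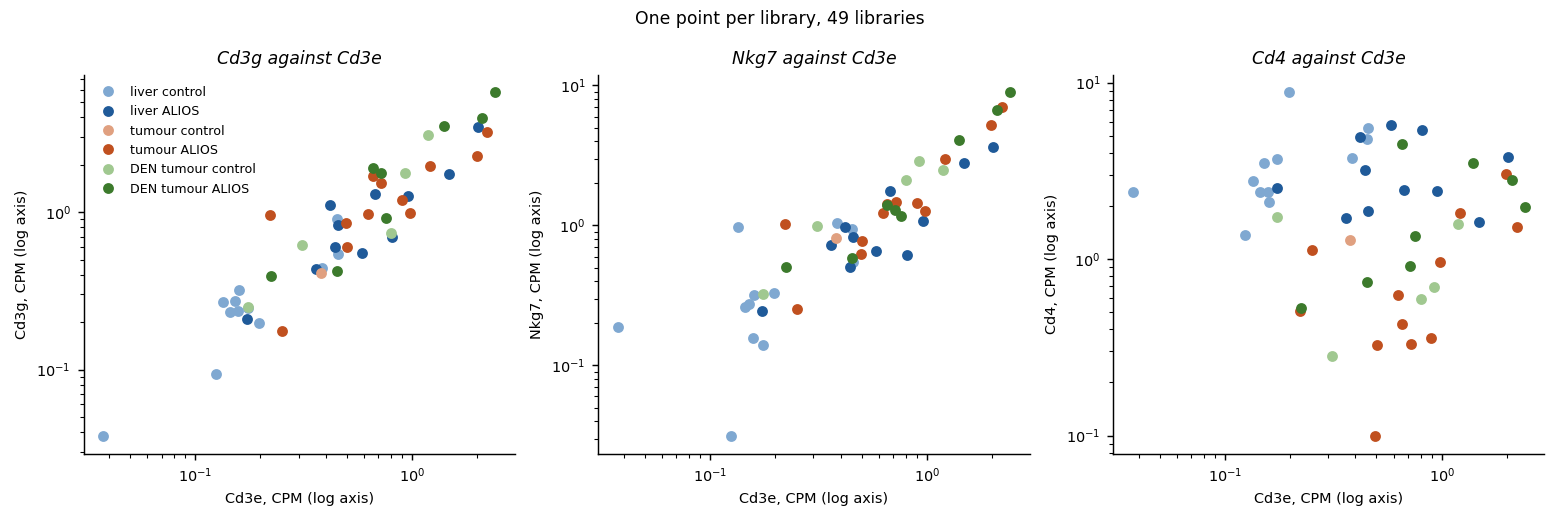
Cd3g, Nkg7 and Cd4 against Cd3e in CPM on log axes, 1 point per library (49 libraries) coloured by group. Cd3g and Nkg7 rise along with Cd3e in all groups, whereas the Cd4 points form no such line and the tumours without DEN lie mostly below the livers.

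Over the same 23 livers, the genes with the highest Pearson's r of log2 CPM with 5 of the members were sought among the 13857 genes whose mean count there reached 10, leaving the 10 members themselves aside, as a description with no test; the libraries share the diet contrast. For Cd3e they were Ccl5 (0.88), Myof (0.88), Cxcr3 (0.88), Sh3kbp1 (0.88) and H2-Eb1 (0.88); Ccl5 is a chemokine of cytotoxic cells and Cxcr3 a chemokine receptor of T cells. Ccl5 kept a high r with Cd3e in the tumours without DEN (0.80) and in the DEN tumours (0.96). For Nkg7 they were Naaa (0.93), Slamf7 (0.93), Arhgap27 (0.92), BC064078 (0.91) and Cd52 (0.91), of which Slamf7 and Cd52 are leukocyte surface molecules. For Cd8a they were H2-M2 (0.89), Psd4 (0.87), Ttc39a (0.86), Lgals1 (0.86) and Ppt1 (0.86), and r for H2-M2 was 0.31 in tumours without DEN and 0.59 in DEN tumours. For Gzma they were Itgb7 (0.75), Slc35b2 (0.75), Gimap1 (0.75), Sept6 (0.74) and Suv39h1 (0.74). For Cd4 the values were lower, Gpr162 (0.74), Gm21917 (0.74), Wfdc15b (0.72), Selenbp2 (0.71) and Gsap (0.68).

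T7, the only tumour from a control diet mouse without DEN, gave values with no test. It had 13 Cd3e, 14 Cd3g and 8 Cd3d reads, within the range of the 12 control diet livers in CPM. Its 25 Prf1 reads exceeded the highest control liver, which had 9, while its 1 Gzmb read and 5 Cd8a reads were below every ALIOS diet tumour without DEN. Its 28 Nkg7 reads were within both ranges. Its 44 Cd4 reads matched the lowest count of the control livers and lay within the range of the ALIOS diet tumours. In CPM, Cd4 in T7 (1.28) was below every control liver, of which N4 was the lowest (1.37). Mki67, a gene of dividing cells, had 791 reads in T7, 141 to 1491 in the ALIOS diet tumours without DEN and 13 to 49 in the control diet livers. The left-out T1 had 23 Cd3e, 16 Cd4, 18 Cd8a and 42 Nkg7 reads.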

How the data were processed

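Poly(A) RNA of liver tissue and liver tumours was sequenced in 50 libraries. According to the labels and methods, the authors extracted RNA with an integrity number above 8, made Illumina libraries, aligned reads to mm10 with STAR and counted reads per gene (exons, Gencode M6) with HTSeq; versions and the strand setting are not given in the sources used here. The deposited values are raw counts of 45792 genes.

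Counts of the 10 genes were read by symbol. Groups came from the labels and T1, which held kidney transcripts, was left out. Each comparison was fitted on the 2 groups compared (4 for the interaction) with edgeR 4.0.16 in R 4.3.3: filterByExpr, TMM factors, quasi-likelihood test, Benjamini-Hochberg adjustment over all genes tested, threshold 0.05. The SE of a log2 fold change was derived from the test, as its absolute value divided by the square root of the F statistic. CPM are counts per 1000000 reads, TMM scaled, and log2 CPM has a prior count of 2. Genes removed by the filter were read from a fit without it. Alternatives were DESeq2 1.42.0, its size factors, no filter, all 6 groups in 1 fit, robust dispersions, T1 kept, libraries left out in turn (every library in the diet and tumour comparisons, tumours alone for DEN tumours against liver, and the control diet DEN tumours for the interaction) and a replicate block. Intervals reflect the spread between libraries, and a count under 10 has a large counting error.

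Gene coordinates and exon lengths are from Gencode M21 (GRCm38). The text names all 10 genes, from each companion list at most the 4 called genes with the smallest p in a comparison, the 5 genes most like each of 5 members, and Mki67, Ptprc, Alb and kidney genes as checks. The members and lists were chosen with earlier results of these data known. The closest pair of libraries within a group, N3 and N4, had a chi-square of 12.3 per gene, so no library was a copy of another in its group.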

Additional observations from a re-analysis of the deposited data

Results flagged for a closer look

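Gzma stood out in T24, an ALIOS diet DEN tumour with 232 reads. Its log2 CPM of 2.06 lay far above the other 7 tumours of that group, which ran from -1.67 to -0.26; the gap was 0.62 of the whole range, above the Dixon limit of 0.526 for 8 values. Of 20 gene and group combinations examined this was the 1 that passed, and chance passes about 1 in 20. T24 was also the highest of its group for most of the other genes, without passing that limit.

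Prf1 in T7, the control diet tumour that enters no group comparison, had 25 reads, above the 9 reads of the highest control diet liver. The difference has no replicate and was not tested.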

How the results depend on the processing

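Of 1182 values of the 10 genes under alternative settings, 1159 kept their direction and side of the threshold or were not called in either fit, 17 lost the call, 6 gained it and none of the called values changed sign; 38 values changed sign with neither fit calling the gene. In liver, the diet comparison called 3 of the genes, 6 without the filter, and 1 with N17 and N19 left out together; without the filter it called 5 with N15 left out. The 1542 genes called there became 623 with all 6 groups in 1 fit, 413 without N17 and N19, and 778 or 772 without the filter when N17 or N19 was left out. Fitting all groups together gave Nkg7 an adjusted p of 0.0902 and Gzmb 0.0535 in that comparison, and Cd3d 0.0730 for DEN tumours against control diet liver. DESeq2 called Nkg7 as well as Prf1, 2 genes, for DEN tumours against ALIOS diet liver (adjusted p = 0.0410 for Nkg7). Genes called between DEN and other tumours rose from 0 to 75 with DESeq2 and 403 with all groups; for diet in DEN tumours from 2 to 155 and 296, and to 1 without the filter; and for the interaction from 354 to 657 with DESeq2 and 220 with all groups. The cause of these differences was not tested.

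Leaving out 1 library at a time, the number of the 10 genes called was 2 to 3 for diet in liver, 2 to 3 for tumour against liver on the ALIOS diet, 1 to 3 for DEN tumour against ALIOS diet liver, 5 to 6 against control diet liver, and 0 to 0 in the other 3 comparisons. Only the 8 and the 5 DEN tumours were left out in the comparisons with liver, and the 5 control diet DEN tumours for the interaction, so these ranges do not cover the livers. Genes called were 949 to 2343, 7056 to 7919, 6270 to 7610 and 6986 to 7637 in those comparisons, 0 to 15 for DEN against other tumours, 0 to 19 for diet in DEN tumours and 174 to 446 for the interaction.

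Replicate numbers run on across the groups and the labels do not tie them to 1 mouse. Deviations of same-numbered libraries correlated at -0.20 and -0.07 for tumour against liver, where 2 numbers are shared, and between -0.10 and 0.06 for DEN tumour against liver, where 4 are; 0 of those 4 tumours matched its own number best. With the replicate block, fitted on the shared numbers only, 0 of the 10 genes and 379 genes in all were called for tumour against liver, with a log2 fold change of -1.13 for Cd4 and 2.48 for Cd8a, and 1664 genes, Prf1 among them, for DEN tumour against liver. These fits hold fewer libraries.

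Counts limit what can be seen: 5 of the genes were under 10 reads in 19 or more of the 49 libraries, and for those the value of 1 library can decide a call.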
